A study of Mus musculus with 10 samples.

Results

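Colonic MHCII+ cells (2 libraries) were set against 6 libraries of colonic cells sorted on the integrins CD11c and CD11b. The 2 are written MHCLI in the sample titles, which was read as colonic MHCII+ by elimination. The 6 integrin-sorted libraries were 2 each of CD11c+ cells, CD11b+CD11c+ cells and CD11b+ cells (titled CD11cSP, DP and CD11bSP). The members were chosen by title, 8 of the 10 libraries of the series. The other 2 are splenic MHCII+ cells, whose values are given beside some results. All groups came from wild-type C57BL/6 mice 8 weeks of age, with no other agent or allele named, and poly(A) RNA was sequenced from small numbers of sorted cells. The labels used here do not say whether the MHCII+ cells were gated on other markers or the integrin subsets on MHCII. They also do not say which marker removed other cells, or whether mice were pooled. Nothing in them ties the replicates to different animals, and the p-values below therefore cover library-to-library spread alone, possibly technical.

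MHC class II molecules carry peptides from taken-up antigen to CD4 T cells, and their genes are switched on by the coactivator encoded by Ciita. In the colon lamina propria they are carried by dendritic cells, by macrophages that renew from monocytes, by B cells and group 3 innate lymphoid cells, and at low and inducible levels by the epithelium itself. CD11c (Itgax) and CD11b (Itgam) are integrin alpha chains that split the phagocytes among these cells: dendritic cells of the cDC1 type carry CD11c with little CD11b, cDC2 carry both, and macrophages carry CD11b with varying CD11c. A bulk MHCII+ sort and an integrin sort therefore take overlapping but different cells. In RNA from a bulk sort, fewer cells of a type and less RNA per cell cannot be told apart.

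The MHCII+ bulk libraries held 30939267 and 17935568 estimated counts, and the 6 subset libraries between 12806139 and 24817329. Their library numbers were 81 and 82, next to the splenic libraries (83 and 84), whereas the subset libraries were numbered 95 to 100. The bulk sort and its library set therefore cannot be told apart in any comparison below. Over all genes tested, the Pearson correlation of log2 CPM (counts scaled to a common library size by TMM factors) was 0.965 between the bulk replicates and 0.974 to 0.981 between the replicates of each subset. Between the bulk libraries and single subset libraries it was 0.902 to 0.915 for CD11b+, 0.897 to 0.905 for CD11b+CD11c+ and 0.863 to 0.883 for CD11c+. The tissue assignment held in all 8 libraries: Igha, the heavy chain of the IgA that gut plasma cells secrete, stood at 8610 CPM or more in each, against 50.1 and 31.7 CPM in the splenic libraries. CPM values are not divided by transcript length, so each level below is compared between libraries and not between genes.

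A gene was called when edgeR's quasi-likelihood test of the bulk group against the mean of the 3 subsets, each weighing equally on the log scale, gave a Benjamini-Hochberg adjusted p under 0.05. It was outside the range when, in addition, both bulk libraries lay above the highest or below the lowest of the 6 subset libraries. Of 14729 genes tested, 2010 (13.6%) were called above the range and 1380 (9.37%) below it, 23% of genes in all. Before the range was applied, 35.8% of genes were called: 2852 (19.4%) were higher and 2421 (16.4%) lower; without MHCII+ bulk replicate 2 the lower count was 1280. Few of the gaps were wide on the lower side: 565 genes (3.84%) lay at least 2-fold above the highest subset library, on CPM + 1, and 60 (0.407%) at least 2-fold below the lowest. The split of calls depended on the scaling: 59.3% of the genes outside the range were above it, against 79.3% with total counts (2683 above, 701 below) and 83.5% with limma on TPM (2448 above, 482 below). Total counts moved the median log2 difference of all genes by 0.168 and TPM moved it by 0.189.

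**Figure D1:**
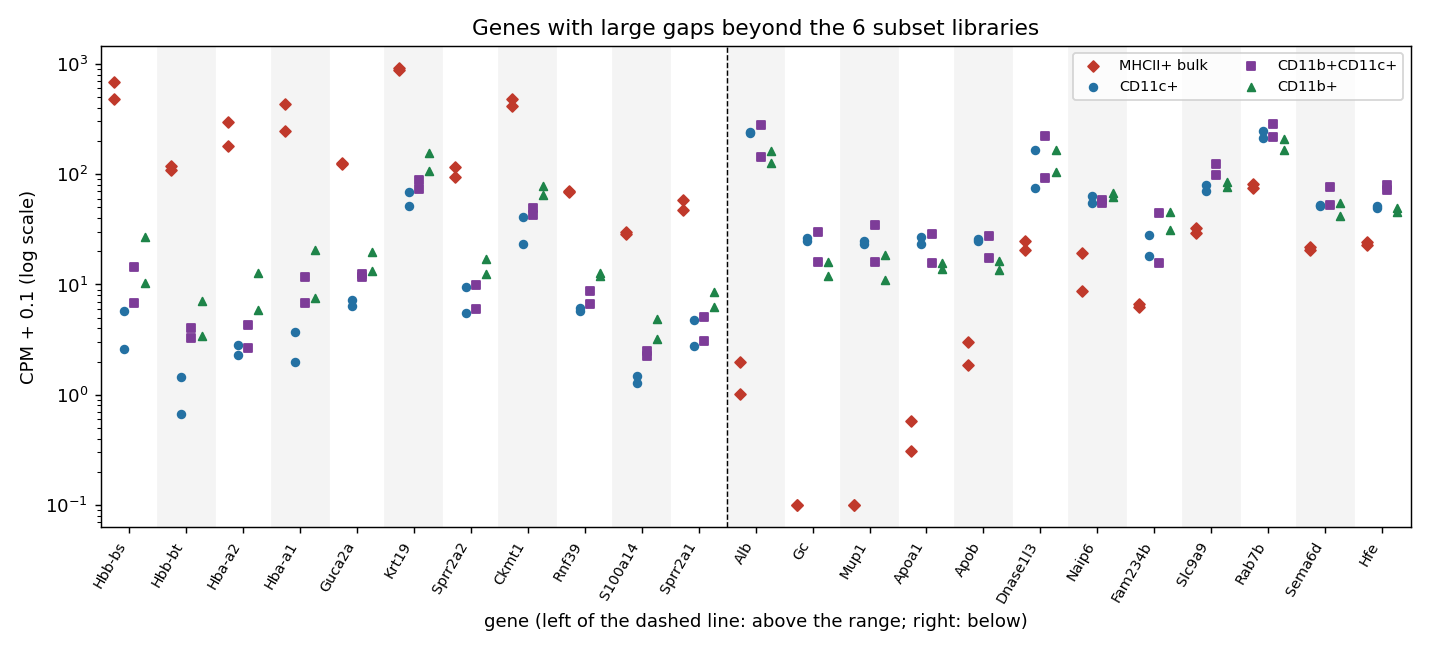
Level of 11 genes among the largest gaps above the 6 subset libraries and the 12 with the largest gap below them, as CPM + 0.1 on a log axis. Only genes with a mean of at least 20 CPM in the higher group were ranked, without antigen receptor segments or unnamed genes. Each point is 1 library (2 for each group, coloured by group). Both bulk libraries lie outside the 6 subset libraries for every gene shown, and Gc and Mup1 are at 0 in both.

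The widest gaps above the range belonged to haemoglobin. Hbb-bs (chr7:103826534-103828096, mm10), a beta-globin chain of red blood cells, stood at 689 and 478 CPM in the bulk libraries. In the subset libraries it was 2.51 at the lowest, 8.42 at the median and 26.8 CPM at the highest. The groups did not overlap, and the log2 difference from the mean of the subsets was 5.96 ± 0.51 (SE; edgeR adjusted p = 0.00161). Hbb-bt, Hba-a1, Hba-a2 and Alas2, which makes the first intermediate of haem in erythroid cells, were above the range as well. In all, 5 of 8 tested genes of the erythroid and platelet list were above it and none below. For all genes the shares were 13.6% above and 9.37% below. Alas2 stood at 14.7 and 6.62 CPM, against 0.206 to 1.23 CPM in the subsets. The platelet gene Ppbp was called lower, at 0.626 and 0.621 CPM within 0.118 to 12.8 CPM. The haemoglobin copies are near identical in sequence, so the share of each is uncertain, and their summed level is the firmer value. It was 1539 and 1015 CPM in the bulk libraries and 7.16 to 66.9 CPM in the subsets. The splenic MHCII+ libraries, numbered next to the bulk, held 506 and 1220.0 CPM of these 4 genes. Haemoglobin was thus high in the colonic and the splenic MHCII+ libraries, but the splenic ones also differ in tissue. Library set, sort and tissue cannot be told apart for haemoglobin, and its part in other results was not tested.

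The widest gaps below the range belonged to genes of the liver. Alb (chr5:90460897-90476602), serum albumin, stood at 0.924 and 1.86 CPM in the bulk libraries and at 125, 198 and 276 CPM at the lowest, median and highest of the subset libraries. The log2 difference was -7.18 ± 0.53 (SE; edgeR adjusted p = 0.000482). Gc (chr5:89417522-89457898), the vitamin D binding protein of plasma, had no count in either bulk library and 11.9 to 29.9 CPM in the subsets. Against a floor of 3 counts in each bulk library it was at least 169.5-fold lower. Mup1 (chr4:60498012-60501960), a major urinary protein with many near-identical copies, also had no count in the bulk and 10.8 to 34.3 CPM in the subsets, at least 173.5-fold lower. Apoa1 and Apob, the main proteins of high and low density lipoproteins, were below the range by 28.8-fold and 4.61-fold. These folds, and the others given as beyond the range of single genes, compare the nearest bulk and subset libraries in CPM with nothing added.

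A list of 30 hepatocyte genes was drawn up after these values were seen and is given as a description. Of the 30, 26 were below the range, Cps1 and Tat were above it, and Hp and Trf, which myeloid cells also express, were in neither class. Both bulk libraries were under 1 CPM for 22 of the 30, and 9 had no count there, among them Cyp2e1, a cytochrome P450 of the liver, and the fibrinogen chains Fga, Fgb and Fgg. Summed over the 26 genes, the level was 19.4 and 15.8 CPM in the bulk, 2.54 and 3.27 CPM in the spleen, and 303 to 658 CPM in the subsets. It was present in all 6 subset libraries (559 and 539.8 CPM in CD11c+, 658 and 343 in CD11b+CD11c+, 383 and 303 in CD11b+). Both CD11c+ libraries lay above both CD11b+ libraries, and all 6 lay far above the bulk and the spleen. They also made up 21 of the 60 genes at least 2-fold below the range, with a further 14 being immunoglobulin segments. Their part in other results below the range was not tested.

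**Figure D2:**
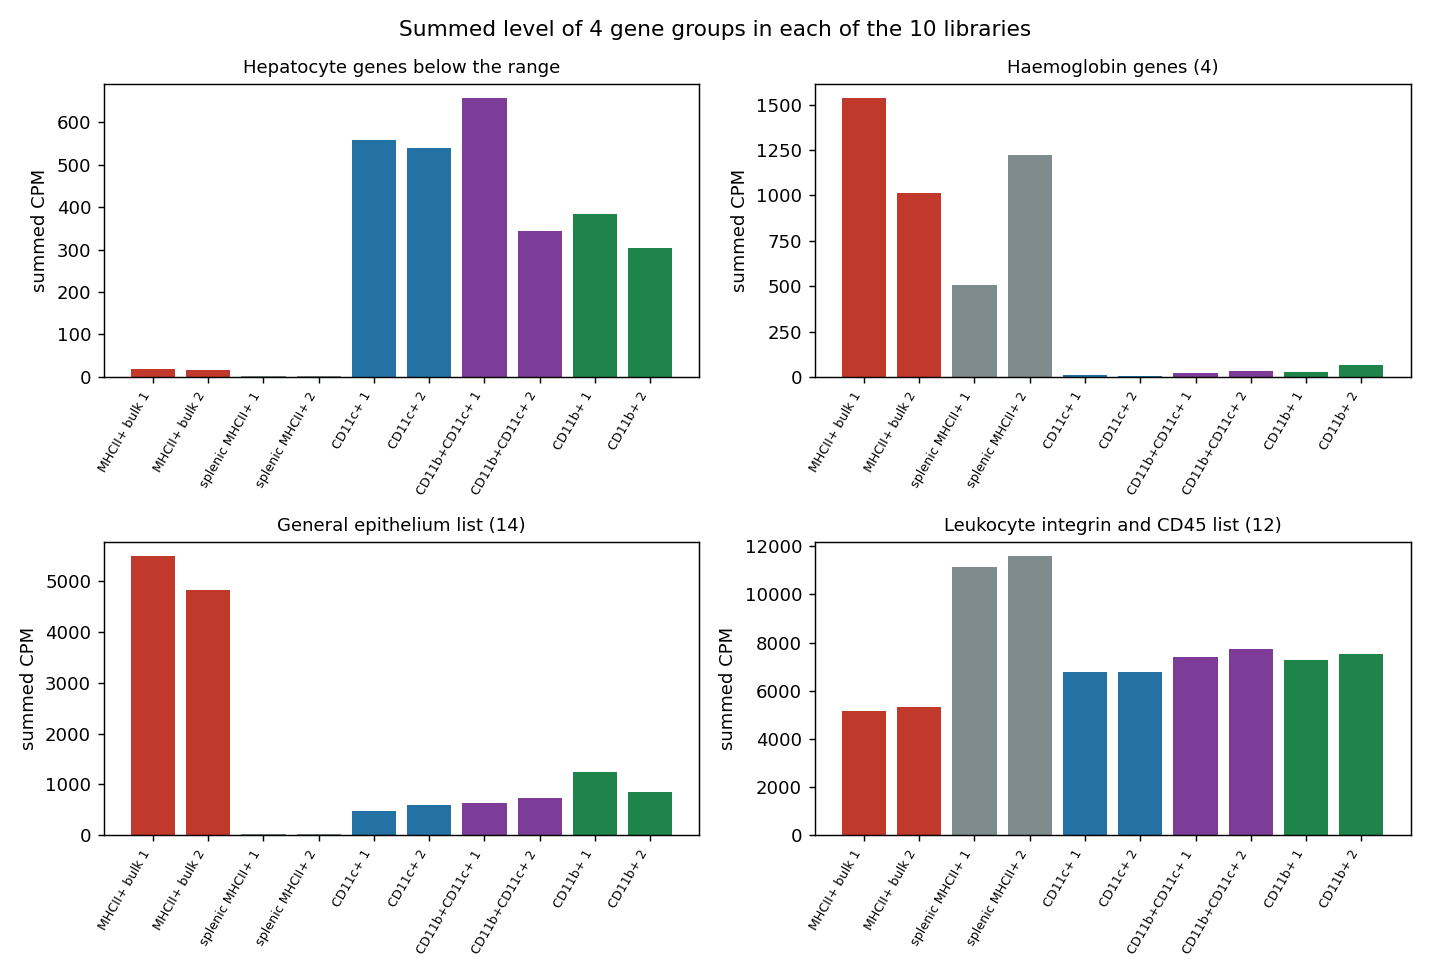
Summed CPM (linear axes from 0) of 4 gene groups in each of the 10 libraries, coloured by group; MHCII+ bulk is the colonic MHCII+ sort, and splenic values come from a fit of all 10 libraries. The 26 hepatocyte genes are high in the 6 subset libraries, haemoglobin in the 4 MHCII+ libraries, epithelial genes in the colonic bulk (5498 and 4828 CPM), and leukocyte genes lowest in the colonic bulk (5157 and 5313 CPM).

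The promoters of a gene from each end are shown because both kinds move as a group, and their letters let a reader look for shared elements. They come from RefSeq on GRCm38.p6, 250 bases before to 50 after the start, 5′ to 3′ on the gene's strand. For Hbb-bs (chr7:103827879-103828178, minus strand) capitals mark the motif CCACACCC, the letters known to be bound by the erythroid factor KLF1. It occurs on either strand in 3.56% of the 32851 promoters of the table. For Gc (chr5:89457849-89458148, minus strand) capitals mark GTTAAT, part of the site known for HNF1 factors of liver and gut epithelium, found on either strand in 7.1% of promoters. Both motifs were picked after several had been searched, and a match is a description of letters, not a bound site.
Hbb-bs: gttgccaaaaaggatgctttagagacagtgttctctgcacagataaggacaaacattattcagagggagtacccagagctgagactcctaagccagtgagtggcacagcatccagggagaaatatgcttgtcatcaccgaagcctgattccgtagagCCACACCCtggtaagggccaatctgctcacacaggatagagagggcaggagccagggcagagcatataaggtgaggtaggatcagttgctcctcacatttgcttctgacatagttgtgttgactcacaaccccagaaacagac
Gc: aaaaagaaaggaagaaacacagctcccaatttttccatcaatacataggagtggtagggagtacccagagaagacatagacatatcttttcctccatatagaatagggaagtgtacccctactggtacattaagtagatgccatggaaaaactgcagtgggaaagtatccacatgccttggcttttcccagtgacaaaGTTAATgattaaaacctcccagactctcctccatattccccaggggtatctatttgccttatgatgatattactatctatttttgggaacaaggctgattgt

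Epithelial genes were the largest listed group above the range. Over 5 epithelial lists, 50 of 58 tested genes were called above the range and none below it, beside 13.6% above for all genes. All 14 tested genes of the general epithelial list were above it, with a median log2 difference of 2.80, against -0.01 for all genes tested. Krt8 (chr15:101996698-102004482), a keratin of simple epithelia, stood at 1705 and 1460.0 CPM in the bulk libraries and at 122, 202 and 369.6 CPM at the lowest, median and highest of the subsets. The log2 difference was 2.92 ± 0.16 (SE; edgeR adjusted p = 1.11e-05). Krt19 (chr11:100140810-100148665), another keratin, stood at 879 and 920.1 CPM against 51.1 to 154 CPM, 5.71-fold beyond the range. Epcam, the epithelial adhesion molecule often used to gate epithelium out, stood at 372 and 328 CPM against 52.3 to 103 CPM. Among the subsets the CD11b+ libraries were the highest for all 3 genes, and the bulk libraries lay above them without overlap.

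The higher level held for most epithelial lineages on the lists, tuft genes apart. Of the absorptive genes 13 of 14 rose above the range, among them Guca2a, the precursor of the gut hormone guanylin, at 126 and 124 CPM against 6.24 to 19.6 CPM. Slc37a2, a sugar phosphate exchanger that macrophages express too, was called lower, at 15.2 and 17.2 CPM within a range of 7.30 to 68.1 CPM. Of the goblet and secretory genes 9 of 12 rose, among them Muc2, the gel-forming mucin, at 700.0 and 1041 CPM against 102 to 281 CPM, and Agr2, which folds it, at 709 and 599.6 CPM against 59.2 to 203 CPM. Spdef and Atoh1, transcription factors of the secretory lineage, rose as well, by 3.42 ± 0.17 and 2.86 ± 0.16 on the log2 scale (SE). Of the stem and progenitor genes 8 of 10 were above the range, among them Sox9, at 27.5 and 34.9 CPM against 3.39 to 12.7 CPM, and Myb, at 36.3 and 26.6 CPM against 7.71 to 12.2 CPM.

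Of the tuft and enteroendocrine genes 6 of 8 were above the range, and 1 of 8 with the 6 subset libraries as 1 group. Chga, a granule protein of endocrine cells, stood at 57.1 and 54.1 CPM against 1.15 to 19.8 CPM, and Gcg, which encodes glucagon-like peptides, at 24.7 and 14.2 CPM against 0 to 5.75 CPM. The tuft genes Trpm5 and Dclk1 stood at 4.23 and 7.81 CPM and at 0.924 and 0.776 CPM, within the range. In the CD11c+ libraries Gcg was at 0.0789 and 0 CPM, Chga at 1.15 and 2.51 CPM and Chgb at 1.10 and 7.35 CPM, lower than in the other subsets. Ckmt1, a mitochondrial creatine kinase, Rnf39, a RING finger protein, and S100a14, a calcium-binding protein, also stood among the widest gaps, at 5.36-fold, 5.46-fold and 5.98-fold beyond the range. All 3 were under 1 CPM in both splenic libraries. Sprr2a1 and Sprr2a2, cornified envelope proteins, were 5.58-fold beyond the range each, but they are near-identical copies that overlap on chr3 and cannot be counted apart. The epithelial count was 42 to 51 above the range over the alternatives; Fcgbp and Chgb lost their call in 6 and 7 of 19.

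**Figure D3:**
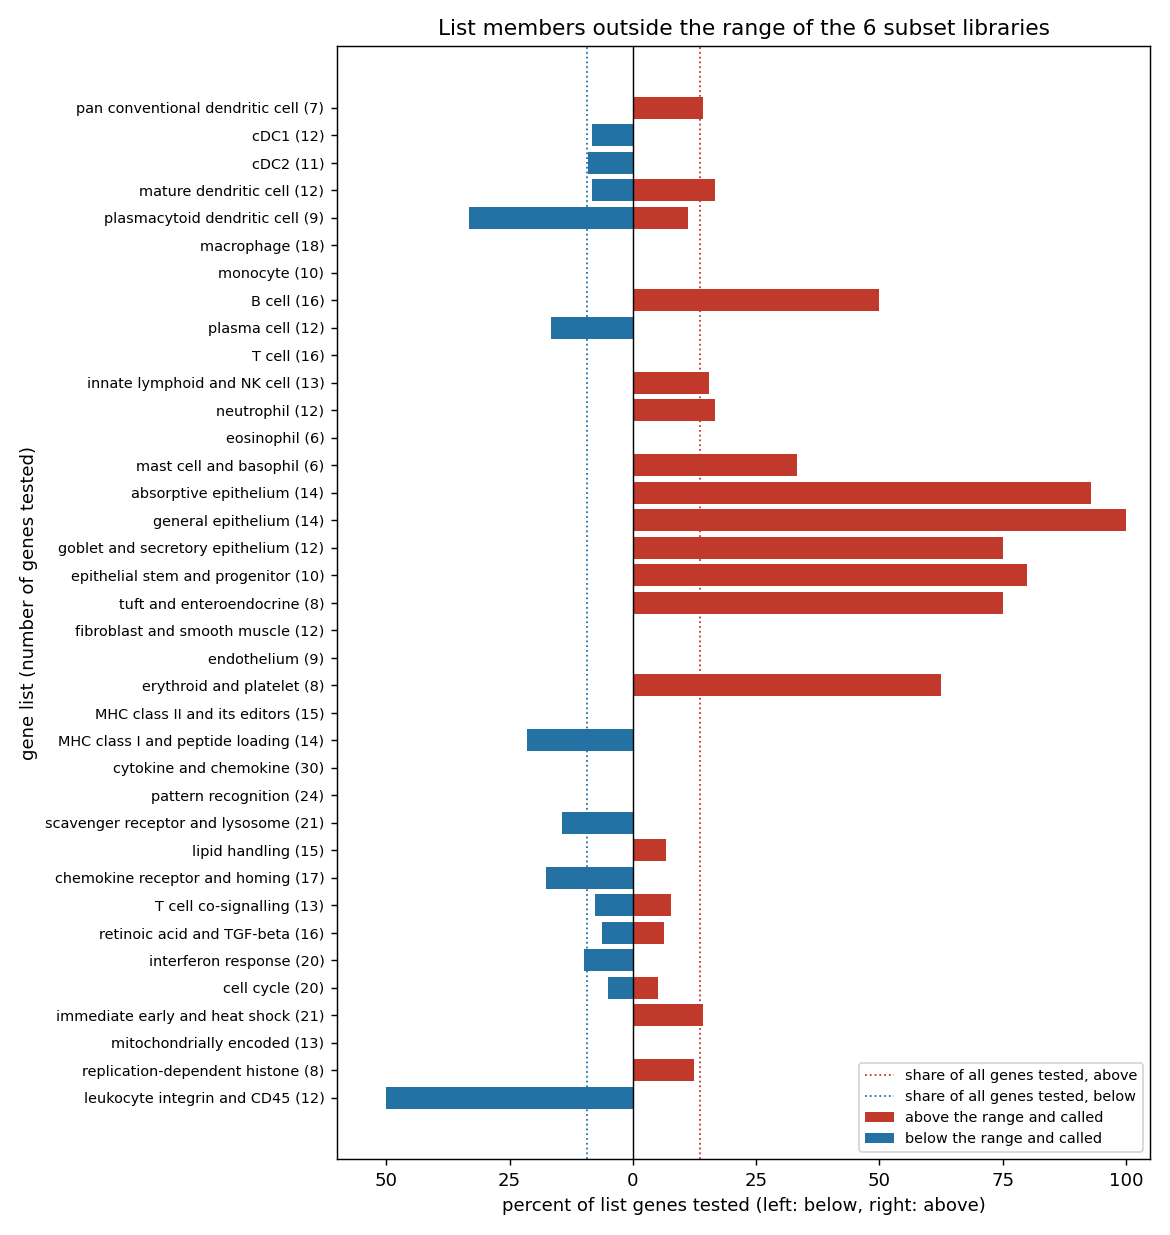
Percent of the tested members of each list called above (right) or below (left) the range of the 6 subset libraries, for the functional and cell type lists with 6 or more tested genes, without the hepatocyte list; the number tested is in brackets. Dotted lines mark the shares among all genes, 13.6% above and 9.37% below. Among the lists shown, the epithelial, erythroid and B cell lists reach furthest to the right and the leukocyte list furthest to the left.

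Several leukocyte genes, CD45 among them, were lower in the bulk. Of 12 tested genes of the leukocyte integrin and CD45 list, 7 were called lower and 1, Itgam, higher. Of these 6 were below the range and none above, with a median log2 difference of -0.44, beside 9.37% below for all genes. With the 6 subset libraries as 1 group, 1 of the 12 was called lower and below the range. Ptprc (chr1:138062861-138175708), which encodes CD45, stood at 1046 and 1029 CPM, against 1330.0, 1380.0 and 1605 CPM at the lowest, median and highest of the subsets. The log2 difference was -0.45 ± 0.10 (SE; edgeR adjusted p = 0.00581). Lcp1, an actin bundler of leukocytes, stood at 982 and 1054 CPM against 1323 to 1602 CPM, and Itgb2, the beta chain shared by CD11b and CD11c, at 311 and 319 CPM against 356 to 463 CPM. Cd53 and Laptm5, membrane proteins of leukocytes, were below the range too, whereas Coro1a, an actin regulator, stood at 628 and 747 CPM within 627 to 901 CPM and did not pass the test. The call for Ptprc was lost without MHCII+ bulk replicate 2 (edgeR adjusted p = 0.0555), with limma on TPM (0.0763) and with the 6 subset libraries as 1 group (0.0829); over all alternatives it ran from 0.000208 to 0.0829.

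The 2 integrins of the subset sort behaved differently from each other. Itgax (chr7:128129547-128150657) stood at 375 and 413 CPM in the bulk, below all 6 subset libraries, CD11b+ included (503 and 571 CPM). The log2 difference from the mean was -0.85 ± 0.11 (SE; edgeR adjusted p = 0.000388), and it was lower against each subset on its own, by 1.19 against CD11c+, 0.91 against CD11b+CD11c+ and 0.45 against CD11b+. Itgam (chr7:128062640-128118491) stood at 398 and 347 CPM, between the CD11c+ libraries (26.9 and 42.1 CPM) and the others (704 to 819 CPM). It was 3.44 ± 0.21 (SE) higher than CD11c+ and 1.03 lower than CD11b+ on the log2 scale. Against the mean of the 3 subsets Itgam came out 0.46 higher (edgeR adjusted p = 0.0469), because that mean is taken on the log scale. The call was lost in 7 of 19 alternatives, and with the 6 libraries as 1 group the difference was -0.48.

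MHC class II genes, the basis of the bulk sort, were not above the integrin subsets. Of 15 tested class II chains and editors 7 were called lower and none higher, beside 16.4% lower and 19.4% higher for all genes. Their median log2 difference was -0.46, and none lay outside the range. H2-Aa (chr17:34282744-34287823), an alpha chain, stood at 3682 and 4659 CPM, against 3864 and 5332 CPM in CD11b+ and 5802 to 7003 CPM in the other subsets. H2-Ab1, its beta chain, stood at 3937 and 5011 CPM within 3592 to 8312 CPM. Cd74, the invariant chain, stood at 6270.0 and 7516 CPM against 6962, 10430.0 and 12680.0 CPM at the lowest, median and highest of the subsets. Against CD11c+ and CD11b+CD11c+, H2-Aa was lower by 0.62 and 0.64 on the log2 scale (edgeR adjusted p = 0.026 and 0.025), and against CD11b+ the difference of -0.14 did not pass the test (0.58). Ciita stood at 42.9 and 52.8 CPM against 43.2 to 54.3 CPM in CD11b+ and 89.0 to 125 CPM in the other subsets.

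The class II calls were near the threshold. H2-Aa, H2-Ab1, H2-Eb1 and Cd74 were lower than the mean by 0.46 to 0.57, at edgeR adjusted p of 0.0199 to 0.0492, and lost the call in 11, 13, 4 and 5 of 19 alternatives. The 7 class II calls fell to 2 without either bulk replicate (replicate 1 or 2), to 1 with limma on TPM and to 0 with the 6 subset libraries as 1 group. Without CD11b+ replicate 1, 5 of the 15 genes were below the range. Of 14 tested MHC class I genes 5 were called lower and 3 were below the range, beside 16.4% and 9.37% of all genes. B2m, the light chain of class I, stood at 795 and 737 CPM against 993 to 1391 CPM, and Nlrc5, the class I coactivator, at 51.8 and 56.1 CPM against 59.6 to 132 CPM. Without MHCII+ bulk replicate 1 the 5 class I calls fell to 1, and without replicate 2 to 3.

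**Figure D4:**
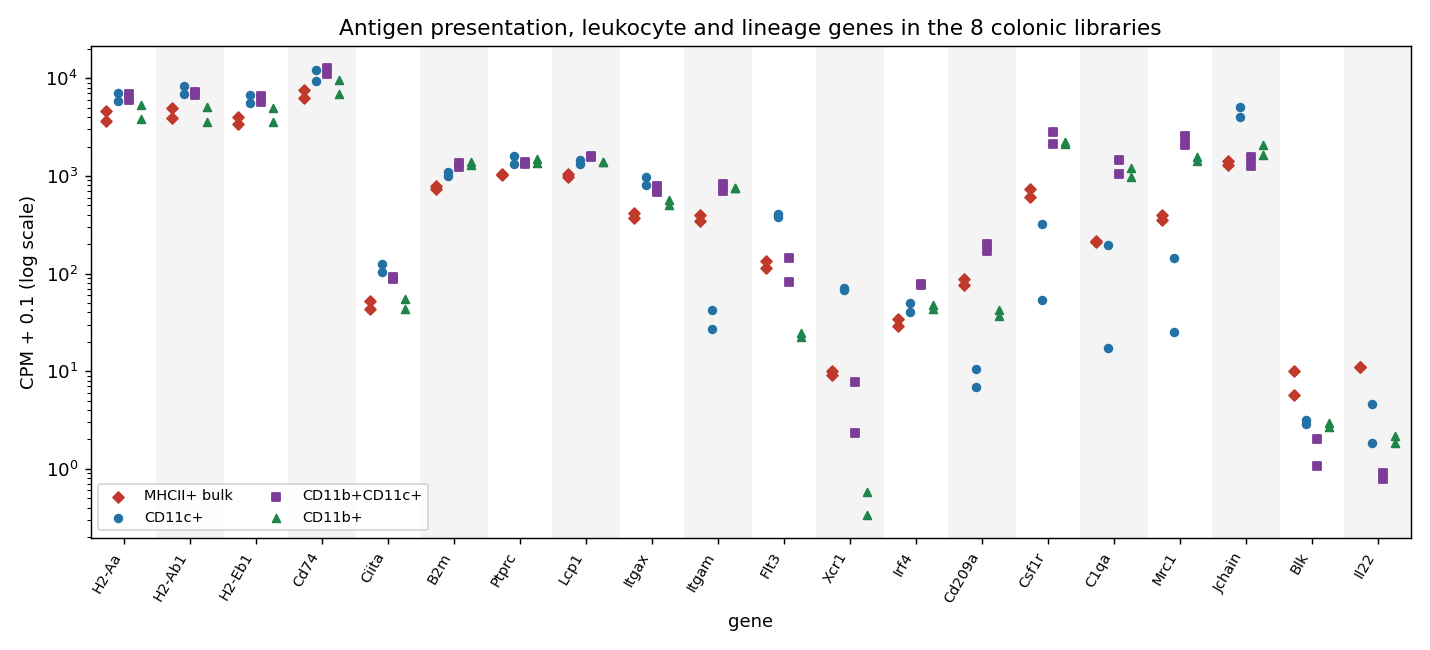
CPM + 0.1 on a log axis for 20 antigen presentation, leukocyte and lineage genes, 1 point per library, 2 libraries for each of the 4 colonic groups. The bulk lies low in the class II genes, Itgax and Ptprc (1046 and 1029 CPM), between the subsets for Itgam, Flt3, Xcr1 and Csf1r, and above all 6 for Blk and Il22.

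Genes of B cells were above the range at low levels. Of 16 tested B cell genes 8 were above it and none below, beside 13.6% above and 9.37% below for all genes. Fcer2a (CD23), a low-affinity IgE receptor of mature B cells, stood at 4.92 and 10.4 CPM in the bulk and at 0.947, 1.55 and 2.20 CPM at the lowest, median and highest of the subsets. Both bulk libraries were higher, and the log2 difference was 2.36 ± 0.31 (SE; edgeR adjusted p = 0.000427). The splenic libraries held 107 and 123 CPM. Blk, a kinase of the B cell receptor pathway, stood at 5.63 and 9.98 CPM against 0.963 to 3.08 CPM. Ms4a1 (CD20), Cr2 (the complement receptor CD21), Ebf1, Pax5 and Ighd were above the range as well. Cd79a, a chain of the B cell receptor, stood at 23.6 and 19.0 CPM within the range of 9.07 to 36.5 CPM, Cd79b was called lower, and Ighm stood at 222 and 159.9 CPM against 182 to 271 CPM, overlapping it. Without MHCII+ bulk replicate 1, 2 of the 16 genes were below the range.

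Plasma cell genes went the other way. Of 12 tested, 5 were lower and 1 higher, beside 16.4% lower and 19.4% higher for all genes. Derl3 and Tnfrsf17 were below the range, beside 9.37% of all genes. Derl3, a factor that clears misfolded protein from the endoplasmic reticulum, stood at 15.2 and 13.8 CPM against 16.9 to 54.4 CPM. Jchain, the joining chain of secreted IgA, stood at 1428 and 1300.0 CPM against 1268 to 5055 CPM. For Jchain the gap was widest against CD11c+: the log2 difference was -1.73 against CD11c+ (edgeR adjusted p = 7.9e-05) and -0.06 against CD11b+CD11c+ (0.79). Against the mean of the 3 subsets it was -0.74. The number of plasma cell genes called lower was 2 without MHCII+ bulk replicate 2 and 9 without CD11c+ replicate 1.

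Il22 (chr10:118204942-118210047), a cytokine of innate lymphoid cells and T cells that acts on the epithelium, was above the range. It stood at 10.8 and 11.1 CPM in the bulk and at 0.688, 1.76 and 4.54 CPM at the lowest, median and highest of the subsets. The groups did not overlap, and the log2 difference was 2.72 ± 0.29 (SE; edgeR adjusted p = 0.000114). Of 13 tested genes of the innate lymphoid and NK list 6 were higher than the mean and none lower. For all genes the shares were 19.4% higher and 16.4% lower. Gata3 and Eomes were higher than the mean but within the range, and Gzma, a granzyme, stood at 10.5 and 14 CPM within 3.93 to 623 CPM.

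Granulocyte and mast cell genes were intermediate or slightly above. Of 12 neutrophil genes 8 were higher than the mean and 2 above the range, beside 19.4% higher and 13.6% above for all genes. S100a8, an abundant neutrophil protein, stood at 34.5 and 21.4 CPM, just over the CD11b+ libraries (20.9 and 20.6 CPM), with no count in either CD11c+ library. Of 6 tested eosinophil genes 5 were higher than the mean and none above the range, since the CD11b+ libraries were higher still: Ccr3, the eotaxin receptor, stood at 63.3 and 61.2 CPM against 128 and 112 CPM in CD11b+ and 0.434 and 0.126 CPM in CD11c+. Mcpt4 and Tpsb2, mast cell proteases, were above the range at 1.94 to 2.59 CPM, and neither was called there without MHCII+ bulk replicate 1. The 2 neutrophil genes above the range became 4 without CD11b+ replicate 2 and 5 without MHCII+ bulk replicate 2, which also left 3 of the eosinophil calls. The mean of the subsets is taken on the log scale, so CD11c+ libraries near 0 lower it for such genes. With the 6 subset libraries as 1 group, no gene of the neutrophil, eosinophil or mast cell and basophil lists was called.

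For genes that split the integrin subsets, the bulk lay between them. Flt3 (chr5:147330741-147400489), the growth factor receptor of dendritic cells, stood at 114 and 133 CPM, against 379 and 406 CPM in CD11c+, 144 and 82 CPM in CD11b+CD11c+ and 24.8 and 22.3 CPM in CD11b+. It was lower than CD11c+ by 1.67 and higher than CD11b+ by 2.39 on the log2 scale (edgeR adjusted p = 0.0021 and 0.0009). Xcr1, a chemokine receptor of cDC1, stood at 8.97 and 9.98 CPM, against 67.1 and 70.5 CPM in CD11c+ and 0.472 and 0.234 CPM in CD11b+. Csf1r, the receptor that macrophages need to survive, stood at 736 and 609 CPM, against 53.2 and 318 CPM in CD11c+ and 2101 to 2852 CPM in the other 4 libraries. The CD11c+ replicates lay far apart, and no difference of Csf1r passed the test against any subset.

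None of the 18 macrophage genes was outside the range, beside 23% of all genes, and 2 were called lower, beside 16.4%. C1qa, a complement chain, stood at 212 and 213 CPM between 17.1 and 198 CPM in CD11c+ and 973 to 1474 CPM elsewhere. Without CD11c+ replicate 1, which held the lowest level of most of these genes, all 18 were called lower, and without CD11c+ replicate 2, 9 were. Of 12 cDC1 genes only Cadm1, an adhesion molecule, was below the range, and of 11 cDC2 genes only Irf4, their transcription factor, at 28.8 and 34.6 CPM against 40.7 to 78.4 CPM. Both shares were close to the 9.37% of all genes. Of 9 plasmacytoid dendritic cell genes Tcf4, Bst2 and Runx2 were below the range, beside 9.37% of all genes. Klk1, a kallikrein on the same list, was above it at 544 and 439.9 CPM against 45.6 to 134 CPM, with 9.14 and 8.46 CPM in the spleen.

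The subset signatures describe the level of the bulk over many genes. They are the genes higher in 1 subset than in both others, at least 2-fold and with edgeR adjusted p under 0.05, and their choice uses the subset libraries that they are compared with here, so no test is given. The choice also widens the range of the 6 subset libraries for these genes, so few can lie outside it. The counts in neither class are therefore no measure of an intermediate level. Choosing genes for a high level in 1 subset also favours a bulk median below that subset and above the others. The medians are thus a description too, and no measure of an intermediate level. Of 756 CD11c+ signature genes 17 were above the range, 14 below it and 725 in neither class, beside 13.6% above and 9.37% below for all genes. The median log2 difference of the bulk was -1.24 from CD11c+, 0.69 from CD11b+CD11c+ and 0.88 from CD11b+. Of 499 CD11b+ signature genes 51 were above the range, 24 below it and 424 in neither, with medians of -1.32 from CD11b+, 0.69 from CD11b+CD11c+ and 0.39 from CD11c+. None of the 40 CD11b+CD11c+ signature genes was outside the range, and their median was -0.81 from their own subset. The bulk mean lay above the means of both other subsets for 79.6% of the CD11c+ genes, 92.5% of the CD11b+CD11c+ genes and 57.5% of the CD11b+ genes.

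**Figure D5:**
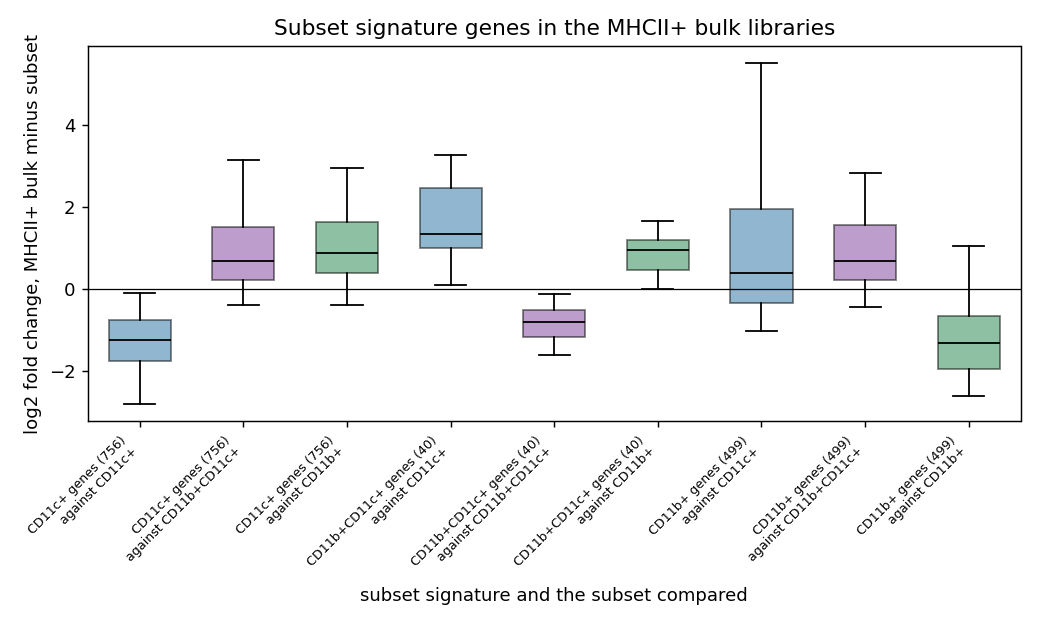
Log2 fold change of the MHCII+ bulk against each subset for the signature genes of each subset (number of genes in brackets). Boxes span the quartiles with the median as a line and whiskers reach the 5th and 95th percentiles of genes. By its medians the bulk lies below each signature's own subset (-1.24, -0.81 and -1.32) and above the others. The choice of the genes favours this pattern.

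Ccr7, which guides mature dendritic cells to lymph nodes, stood at 143 and 121 CPM, against 326 and 266 CPM in CD11b+CD11c+ and 56.4 to 88.7 CPM in the other subsets. Cd209a, a lectin of cDC2, stood at 76.5 and 87.1 CPM, against 203 and 171 CPM in CD11b+CD11c+, 36.8 and 42.7 in CD11b+ and 6.87 and 10.4 in CD11c+. Ccl17, a chemokine of mature dendritic cells, stood at 18.2 and 15.2 CPM, against 40.8 and 44.3 CPM in CD11b+CD11c+. Rab44, a Rab GTPase of granulocytes and mast cells, stood at 268 and 275 CPM, against 624 and 522 CPM in CD11b+ and 0.197 and 0.565 CPM in CD11c+. The cytotoxic genes Cd8a and Ctsw stood at 3.75 and 2.90 CPM and at 24.9 and 33.2 CPM; in CD11c+ they were 95.5 and 27.3 CPM and 173 and 67.1 CPM, with CD11c+ replicate 1 the higher for both.

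After the liver genes, the widest gaps below the range among the genes ranked belonged to 7 genes of varied roles. The ranking took genes with a mean of at least 20 CPM in the subsets. It left out antigen receptor segments and unnamed genes, so other genes below the range had wider gaps than some of the 7. Dnase1l3, a secreted nuclease that clears chromatin, stood at 24.6 and 20.5 CPM against 74.0, 135 and 221 CPM at the lowest, median and highest of the subsets. Slc9a9, an endosomal sodium-proton exchanger, stood at 32.4 and 28.9 CPM against 70.6 to 123 CPM, and Rab7b, a Rab GTPase of late endosomes, at 81.2 and 75 CPM against 165 to 283 CPM. Naip6, at 8.64 and 19.1 CPM against 54.3 to 67.2 CPM, belongs to a family of near-identical copies and is uncertain. Hfe, the haemochromatosis protein that tunes iron uptake, Sema6d, a semaphorin, and Fam234b were the other named genes, 1.88-fold, 1.89-fold and 2.36-fold below the range. The calls of Dnase1l3 and Fam234b were lost without MHCII+ bulk replicate 1 or 2, without CD11b+ replicate 2, and without CD11b+ replicate 1 or CD11c+ replicate 2 respectively; their adjusted p ran up to 0.166 and 0.144.

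Of 21 scavenger receptor and lysosome genes 10 were lower and none higher, beside 16.4% lower for all genes. Cd36, a receptor for lipids and dying cells, stood at 164 and 123 CPM against 223 to 814 CPM, and Lipa, the lysosomal acid lipase, at 39.6 and 42.2 CPM against 56.6 to 140.4 CPM. Of 17 chemokine receptor and homing genes 6 were called lower and 1 higher, and 3 were below the range. For all genes the shares were 16.4% lower, 19.4% higher and 9.37% below. Among the 3 were Itga4, the alpha chain of the gut-homing integrin, and Gpr183, an oxysterol receptor that positions dendritic cells. Itga4 stood at 264 CPM in both bulk libraries against 339.6 to 521 CPM. Of 13 co-signalling genes 1 was above the range, Tnfsf15, a TNF family ligand, at 4.23 and 4.92 CPM against 0.671 to 2.25 CPM. Another 1 was below it, Cd86, a ligand of CD28, at 228 and 185 CPM against 244 to 538 CPM. Neither share of the co-signalling genes exceeded that of all genes (13.6% above, 9.37% below), and without CD11c+ replicate 1, 3 of them were below. The 10 scavenger and lysosome calls became 17 without CD11c+ replicate 1, 6 without MHCII+ bulk replicate 2 and 0 with the 6 subset libraries as 1 group. That grouping also left no call in the homing and co-signalling lists.

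Growth and stress genes gave a mixed picture. Plk1, a mitotic kinase, stood at 49.3 and 44.2 CPM against 13.3 to 18 CPM, above the range, while Mki67, the proliferation antigen, stood at 307 and 286 CPM against 373 to 701 CPM, below it. Of the other 18 cell cycle genes 3 were called lower, beside 16.4% of all genes, and none was outside the range. Of 21 immediate early and heat shock genes 4 were called higher and 1 lower, and 3 were above the range (Fos, Jun and Ier2), a share close to the 13.6% of all genes. Without MHCII+ bulk replicate 1, 8 were above it, and with the 6 subset libraries as 1 group, 1 was. Atf3, the other gene called higher, lay within the range. Ier2 stood at 487 and 489 CPM against 186 to 312 CPM. The heat shock genes Hspa1a, at 517 and 1594 CPM, and Hsp90aa1, at 1134 and 2063 CPM, differed between the bulk replicates and did not pass the test. None of the 30 cytokine and chemokine genes and none of the 24 pattern recognition genes was outside the range, beside 23% of all genes. The range is wide for genes that split the subsets, such as Ccl9 at 2.37 to 303 CPM, so this is no measure of equal levels. Without CD11c+ replicate 1, 6 of the cytokine and chemokine genes and 2 of the pattern recognition genes were below the range.

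Set against each subset separately, which all share the same 2 bulk libraries, the bulk differed in similar numbers of genes. Against CD11c+, 3093 genes were higher and 3093 lower (21% each). Against CD11b+CD11c+, 2941 (20%) were higher and 2593 (17.6%) lower, and against CD11b+, 2735 (18.6%) and 2554 (17.3%). Krt8 was higher by 3.45, 2.97 and 2.33 on the log2 scale against CD11c+, CD11b+CD11c+ and CD11b+, and Alb lower by 7.49, 7.30 and 6.75. Ptprc was lower by 0.50, 0.39 and 0.46. Leaving out 1 library changed these counts by more than 1.5 times in 8 cases. The genes higher than CD11b+CD11c+ became 1936 and 1662 without its replicates 1 and 2, and those lower than CD11c+ became 1949 without MHCII+ bulk replicate 2. Against CD11b+, the genes higher became 1814 and 1282 without CD11b+ replicates 1 and 2, and the genes lower 1501 and 1259, and 1622 without MHCII+ bulk replicate 2.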

How the data were processed

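Kallisto 0.44.0 and the mm10 build are named in the submitters' processing notes; the index release and strand setting were not stated. Per the file headers, each library's deposited table gives estimated counts and TPM per transcript. Each library has its own table, so the replicates are kept apart there. The estimated counts were summed per gene through GENCODE M21 (98.48% of 66760 transcripts matched, 22607 genes), then rounded to whole numbers. Counts with no gene made up 0.532 to 0.912% of a library and were left out. Transcript lengths were multiples of 3 for 88.9%, so they are coding lengths. No libraries were duplicates.

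The 8 colonic libraries were fitted with edgeR 4.0.16 in R 4.3.3 (filterByExpr, TMM, 4 group means, quasi-likelihood F test, Benjamini-Hochberg adjustment), with 14729 genes tested. Splenic CPM come from a scaling of all 10 libraries. Gaps used CPM + 1. Counts were also simulated with 200 genes changed and no library-set effect, and 14344 genes were tested. The test called 69 of 99 genes changed 2-fold (69.7%) and 88 of 99 changed 4-fold (88.9%). Beside these it called 17 unchanged genes. Far more genes were called in the real data (35.8%), so these rates may not carry over. Alternatives used DESeq2 1.42.0, limma 3.58.1 on log2(TPM + 1), other scalings, filters and groupings, and each library left out.

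Named genes were the sort genes, the 12 widest gaps each way with a mean of at least 20 CPM (no antigen receptor segments or unnamed genes), the most abundant members of each list, those outside the range first, and leading signature genes. Other genes named by value were chosen after their values were seen. The members, lists and rules were chosen with earlier results of these data known, and the hepatocyte list after the values here. Some genes that the rules would name are not reported here.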

Additional observations from a re-analysis of the deposited data

How the results depend on the processing

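With the 6 subset libraries as 1 group, whose spread then holds the differences between subsets, 1097 genes were higher and 334 lower, and the same numbers were above and below the range. Total counts gave 1403 genes lower than the mean and 701 below the range, 4684 higher and 1649 lower than CD11b+CD11c+. Limma on TPM gave 920 lower than the mean, 482 below the range, and 1043, 1388 and 1434 lower than CD11c+, CD11b+CD11c+ and CD11b+. Asking for a 2-fold gap left 565 above and 60 below, and asking for a call against each subset left 1209 and 546. Leaving out 1 library gave 2136 to 2834 genes higher and 1280 to 2612 lower than the mean, 1805 to 2129 above and 963 to 1601 below the range. Against CD11c+ these fits gave 2377 to 3154 higher and 1949 to 2718 lower, against CD11b+CD11c+ 1662 to 2967 and 1858 to 2842, and against CD11b+ 1282 to 2803 and 1259 to 2802. The differences of replicate 1 from replicate 2 correlated at 0.225 between CD11c+ and CD11b+CD11c+, and at -0.0527 to 0.0299 between other groups. Whether same-numbered replicates share a source was not tested, and the main fit treats them as separate. The replicate block gave 2772 higher, 2446 lower, 1977 above and 1347 below. The log2 difference changed sign with the 6 libraries as 1 group for Itgam (-0.48), Flt3 (-0.51), Xcr1 (-1.39), Ccr7 (-0.12), Ccl17 (-0.11), Ccl22 (-0.25), Ctsw (-0.55) and Klra5 (-1.44), for Csf1r without CD11c+ replicate 2 (0.02; with each library left out, -0.84 to 0.02), and without CD11b+CD11c+ replicate 1 for Cd8a (-0.91 to 0.39) and Tcrg-C2 (-0.93 to 0.13). Of 77 called genes among 87 followed, 41 kept their call in every alternative. Apart from the settings' own construction, the cause of these moves was not tested. With 2 libraries a group, a gene near 1 CPM rests on few counts.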

Other observations

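Interferon response genes were mostly within the range. Of 20 tested, 3 were called lower and 1 higher, and 2 were below the range, among them Irf9, part of the factor that carries the type I interferon signal. The shares lower and below the range were close to those of all genes (16.4% and 9.37%). Of 16 retinoic acid and TGF-beta genes, only Rdh10, which makes retinal, was above the range, and only Itgav, an integrin chain that activates TGF-beta, was below it. Neither share exceeded that of all genes (13.6% above, 9.37% below). None of the 12 fibroblast and smooth muscle genes and none of the 9 endothelial genes was outside the range, beside 23% of all genes.

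Most genes furthest outside the range were under 1 CPM in the spleen, on the upper and the lower side alike. Of the 565 genes at least 2-fold above it, 378 (66.9%) were under 1 CPM in both splenic libraries, beside 16.7% of all genes tested. Of the 60 at least 2-fold below it, 40 were under 1 CPM there.

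Immunoglobulin variable segments record which plasma cell clones a library holds. Of 183 tested, 5 were above the range and 23 below it (15.3% outside, beside 23% of all genes). As a description over these segments, which share sequence so that reads may be split between copies, the Pearson correlation of log2(CPM + 1) was 0.662 between the bulk replicates and 0.56 to 0.643 between bulk and subset libraries. Between libraries of different subsets it was 0.728 to 0.898 in every pair, and the highest were CD11b+ replicate 1, CD11c+ replicate 2 and CD11b+CD11c+ replicate 2 with each other (0.891 to 0.898).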
